A study of Mus musculus with 2 samples.

Results

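Somatostatin, the peptide encoded by Sst, and 4 of its receptors, Sstr1, Sstr2, Sstr3 and Sstr4, were followed through single cells of the mouse lateral hypothalamic area. These 5 members were listed by symbol and are 5 of the 28692 genes in the count matrices; the remaining receptor, Sstr5, and Cort, which encodes the related peptide cortistatin, were read beside them. The series sampled freshly dissected lateral hypothalamic area from C57BL/6 mice at postnatal day 30 and counted unique molecular identifiers (UMIs, 1 per captured transcript molecule) in single cells on the 10x Chromium platform. One library pooled 3 animals labelled male, the other pooled 2 animals labelled female, all 5 animals were littermates, and no animal was treated. Each library is therefore 1 pool, and animals within a pool cannot be told apart. Errors given as SD rest on 2 libraries. Errors given as SE come from fits to these libraries in which the spread is pooled over genes. Exact intervals cover counting error only.

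The libraries held 3439 and 3793 cell barcodes and 23151801 and 27437142 UMIs (labelled male and labelled female, in this order throughout), with medians of 5718 and 6289 UMIs per barcode and 18 barcode sequences in common. The sex genes went against both labels: Xist, which is transcribed from the inactive X chromosome, had 20641 UMIs in the library labelled male and 30 in the library labelled female, and Y-linked genes had 0 and 7618. The libraries are therefore called by their labels only, and no comparison between the sexes was made. After filters on genes, mitochondrial share and doublet score, 3186 and 3520 cells remained, sorted into 28 clusters without the 7 somatostatin-family genes. Of these, 15 clusters with 4307 cells were neuron-like by Snap25, Syt1 and related markers, 2368 cells were in 8 non-neuronal classes, and 31 cells stayed unnamed. Neurons with at least 1 UMI of Slc32a1, the vesicular GABA transporter, and none of Slc17a6, a vesicular glutamate transporter, are called inhibitory (986 and 1109 cells), and the reverse excitatory (710 and 783 cells). Another 259 neurons had both transporters and 460 had neither.

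Somatostatin is an inhibitory neuropeptide and hormone, cut from a larger precursor and released from dense-core vesicles. Neurons of the hypothalamus that project to the median eminence use it to hold back growth hormone, and many local GABA neurons in the forebrain carry it as a co-transmitter. Its receptors couple to Gi and Go proteins, which lower cyclic AMP, close calcium channels and open inwardly rectifying potassium channels. The Sst promoter is a textbook target of cyclic AMP signalling, through the transcription factor CREB.

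In GENCODE M21 on GRCm38, Sst (ENSMUSG00000004366) lies on the minus strand at chr16:23889573-23890958, Sstr1 on the plus strand at chr12:58211772-58214444, Sstr2 on the plus strand at chr11:113619342-113626028, Sstr3 on the minus strand at chr15:78537008-78544685 and Sstr4 on the plus strand at chr2:148395344-148396767. Sstr2 lies within the span of Slc39a11 on the other strand, of which no exon falls inside Sstr2; the other members overlap no annotated gene. The RefSeq promoter table for GRCm38.p6 held windows from 250 bases before to 50 after the start for 4 of the 5 members. The 250 bases before each start were searched on both strands for the full cyclic AMP response element TGACGTCA. The element was chosen because this palindrome in the Sst promoter is the site through which CREB was characterised. It was present in Sst and in Sstr2, and absent from the Sstr3 and Sstr4 windows. The element is in capitals, with the 11 bases on each side of it, on the strand of the gene:

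Sst promoter, chr16:23890874-23890903, minus strand: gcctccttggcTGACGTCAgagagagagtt

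Sstr2 promoter, chr11:113619258-113619287, plus strand: ccaagctgccgTGACGTCAcgggcgggggc

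The first base of the element stands 48 bases before the RefSeq start of Sst and 58 bases before that of Sstr2. The 2 annotations differ for Sst, with the RefSeq start at chr16:23890844 and the GENCODE span reaching 23890958. The printed Sst stretch therefore lies inside the GENCODE span of the gene. Of all 32851 promoter windows, 508 (1.55%) held the full element before the start, the part searched in the members. The half-site TGACG, which also occurs inside the full element on each strand, was before the start in 5836 windows (17.8%). There it was in the Cort window and in 1 of the 2 Sstr3 windows. It was in neither the Sstr4 window nor the other Sstr3 window. A match is a description of the letters and not of binding, which was not measured.

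Sst was highest in neurons. They held 5284 and 5033 Sst UMIs, or 306 and 249 CPM (UMIs of the gene per 1000000 UMIs of the group), against 96 and 125 UMIs, or 21.4 and 22.7 CPM, in all non-neuronal cells. Both libraries were higher in neurons. The difference was 3.35 ± 0.12 on the log2 scale (SE, adjusted p = 1.41e-06, edgeR quasi-likelihood test, n = 2 libraries). Sst, Sstr1, Sstr2, Sstr3 and Sstr5 passed the filter on low counts and all 5 were called higher in neurons, where 74.1% of the 14829 genes tested were called in one direction or the other (5450 higher and 5541 lower) and 36.8% were called higher. Scaling to library totals in place of TMM, a scaling that assumes most genes do not change, moved the median of all genes by 0.28 on the log2 scale and gave 6937 higher and 4593 lower.

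At least 1 Sst UMI was found in 21.7% of neurons (14.9% after thinning each cell to 3000 UMIs). Mature oligodendrocyte-like cells, a myelinating class that should lack neuropeptides, set the background: 58 UMIs in 1205 cells, 10.2 CPM, and 4.48% of cells with a UMI (2.54% thinned), at a median depth of 4451 UMIs against 7935 in neurons. Among the other non-neuronal classes, Sst was at 16.4 CPM in endothelial-like cells, 13.6 CPM in newly formed oligodendrocyte-like cells, 25.1 CPM in oligodendrocyte precursor-like cells, 35.7 CPM in astrocyte-like cells and 55.5 CPM in microglia-like cells. The mural-like class (166 CPM) and the fibroblast-like class (143 CPM) stood higher, but 25 of 31 mural UMIs and 27 of 36 fibroblast UMIs came from 1 cell each, and 13 of 22 microglial UMIs likewise. Between the libraries, the precursor value ran from 5.02 to 41.9 CPM and the microglial value from 31.0 to 78.8 CPM, so the order of these classes does not hold beyond their spread; every one lay below both kinds of neuron except the fibroblast-like cells of the library labelled male, at 239 CPM, against 238 CPM in excitatory neurons there.

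**Figure D1:**
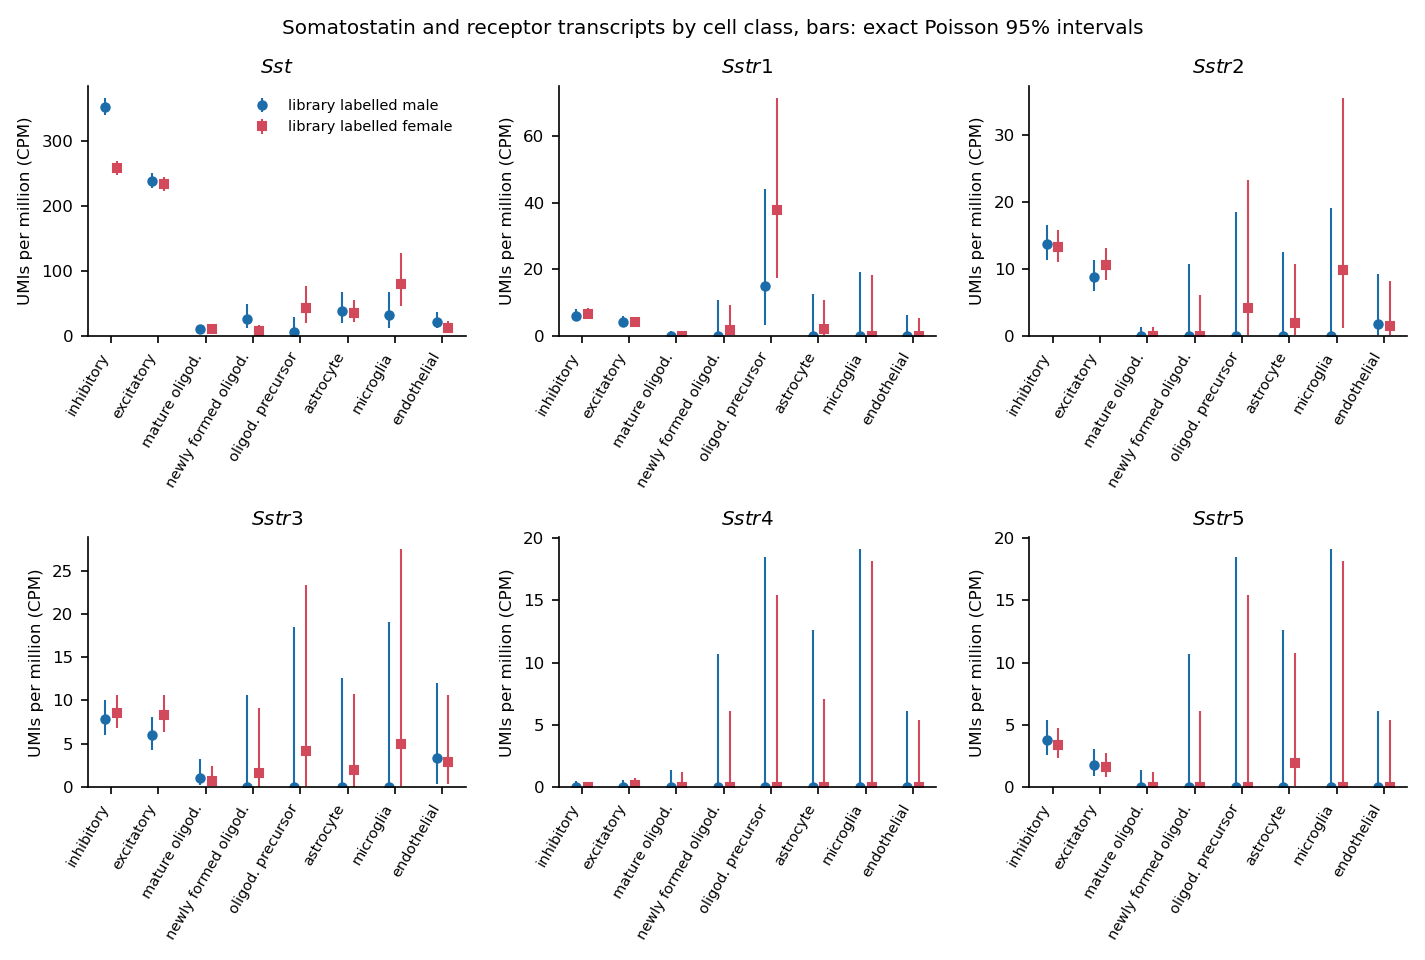
CPM of Sst and of the 5 receptors (vertical axis of each panel, from 0) in inhibitory and excitatory neurons and in 6 non-neuronal classes (horizontal axis). Circles are the library labelled male, squares the library labelled female, and bars exact Poisson 95% intervals of the UMI count; Sst is highest in both kinds of neuron, Sstr1 reaches 15.1 and 37.7 CPM in oligodendrocyte precursor-like cells, and Sstr4 lies at or near 0 throughout.

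The receptors were sparse, and each had its own distribution outside neurons. Sstr1, a receptor with a long-lasting hold on somatostatin, had 91 and 108 UMIs in neurons (5.27 and 5.33 CPM). It also had 12 UMIs in 12 different cells of the 175 oligodendrocyte precursor-like cells, 3 of 81 cells in the library labelled male and 9 of 94 in the library labelled female. With both libraries summed this is 27.4 CPM (exact Poisson 95% interval 14.2 to 47.8), above the neuronal 5.30 CPM (4.59 to 6.09). Of these 12 UMIs, 9 came from the library labelled female. Mature oligodendrocyte-like cells had 0 UMIs in 1205 cells, which allows a share of up to 0.249% of cells with a UMI. All other non-neuronal classes together had 3 of the 15 non-neuronal Sstr1 UMIs. Across all non-neuronal cells Sstr1 was called lower than in neurons (log2 difference 1.56 ± 0.42, adjusted p = 0.0132 by edgeR, own differences of 2.90 and 1.28 in the 2 libraries), but DESeq2 gave an adjusted p of 0.0676.

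Sstr2, the receptor most often studied as an autoreceptor and as the target of octreotide, had 193 and 236 UMIs in neurons (11.2 and 11.7 CPM) and 8 in all non-neuronal cells. The difference was 3.55 ± 0.41 on the log2 scale (adjusted p = 0.000252, edgeR). Its non-neuronal UMIs were scattered over 7 cells, of which no class held more than 2. Sstr3, a receptor known from the primary cilium of neurons, had 124 and 166 UMIs in neurons (7.18 and 8.20 CPM) and 13 outside them, 5 of these in mature oligodendrocyte-like cells; its difference was 2.29 ± 0.31 (adjusted p = 0.00054, edgeR). Sstr5 had 92 neuronal UMIs (2.45 CPM) and 2 others, with a log2 difference of 3.28 ± 0.78 (adjusted p = 0.00805, edgeR). Sstr4 was detected as a single UMI, in an excitatory neuron of the library labelled female, and Cort as 11 UMIs in neurons. With 8.61% of neurons holding an Sstr2 UMI, 6.20% an Sstr3 UMI and 4.23% an Sstr1 UMI (3.55%, 2.18% and 1.72% thinned), a cell without a UMI is not a cell without the receptor at this depth.

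Inhibitory and excitatory neurons both carried Sst. Inhibitory neurons had 2793 and 2440 Sst UMIs, 353 and 258 CPM, and excitatory neurons 1630 and 1775 UMIs, 238 and 234 CPM. The inhibitory values were the higher in each library, with the larger gap in the library labelled male (0.57 on the log2 scale, against 0.14). The fitted difference was 0.31 ± 0.06 (adjusted p = 0.00121, edgeR; 21.5% of 13229 genes were called in this comparison, 1278 (9.66%) higher and 1567 lower in inhibitory neurons, 1840 and 1320 with scaling to library totals, and 186 and 367 with DESeq2). The call did not hold in DESeq2 (adjusted p = 0.899) or without the library term (0.33, adjusted p = 0.234, edgeR). It also depended on which excitatory neurons were counted. Neurons rich in Hcrt, the hypocretin precursor, held 26.8 CPM of Sst and those rich in Pmch, the melanin-concentrating hormone precursor, 14.8 CPM (exact Poisson 95% interval 10.4 to 20.4), the latter overlapping the 7.75 to 13.2 CPM interval of mature oligodendrocyte-like cells. Without neurons that drew at least 0.3% of their UMIs from Hcrt or Pmch, the difference was -0.05 ± 0.05 (adjusted p = 0.664, edgeR). The share of cells with an Sst UMI was 22.8% in inhibitory and 21.5% in excitatory neurons (16.6% and 13.4% thinned). Neurons with both transporters held 623 Sst UMIs (168 and 238 CPM) and those with neither held 1056 (506 and 273 CPM).

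Of the receptors, only Sstr5 was called between the kinds, beside 21.5% of all 13229 genes tested. It had 30 and 32 UMIs in inhibitory and 12 and 12 in excitatory neurons, 3.59 ± 0.29 against 1.67 ± 0.12 CPM (mean ± SD, n = 2), a log2 difference of 1.06 with adjusted p = 0.0309 (edgeR), which DESeq2 and the fit without the library term (adjusted p = 0.101, edgeR) did not call. Sstr1 had 47 and 61 UMIs in inhibitory and 27 and 30 in excitatory neurons, 6.20 ± 0.37 against 3.95 ± 0.004 CPM. The difference of 0.61 ± 0.24 missed the threshold (adjusted p = 0.0778, edgeR). It passed when doublets were kept (adjusted p = 0.0357, edgeR) or no filter on low counts was used (adjusted p = 0.0495, edgeR). Sstr2 stood at 13.8 and 13.2 CPM in inhibitory and 8.78 and 10.5 CPM in excitatory neurons. Its difference of 0.43 missed the threshold (adjusted p = 0.0612, edgeR) and passed it under 3 alternatives. Without Hcrt-rich and Pmch-rich neurons it was 0.08 (adjusted p = 0.814, edgeR). Hcrt-rich neurons had 2 Sstr2 UMIs in 166 cells and Pmch-rich neurons 5 in 146 cells, 0.801 and 2.00 CPM, against 9.66 ± 1.25 CPM in all excitatory neurons. Sstr3 did not separate the kinds: 62 and 81 UMIs in inhibitory and 41 and 63 in excitatory neurons, and a difference of 0.15 (adjusted p = 0.655, edgeR). Any receptor UMI was found in 20.8% and 22.3% of inhibitory and in 15.8% and 19.7% of excitatory neurons, UMIs of exactly 2 different receptors in 18 and 21 inhibitory and in 7 and 16 excitatory cells, and of 3 or more in 2 inhibitory cells.

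Most Sst UMIs came from a small share of the cells. Neurons that drew at least 0.1% of their UMIs from Sst, called Sst-high, were 162 of 2095 inhibitory neurons (7.73%; 80 and 82 in the 2 libraries) and 84 of 1493 excitatory neurons (5.63%; 38 and 46). They held 85.8% of the inhibitory and 84.7% of the excitatory Sst UMIs. The median Sst-high inhibitory cell had 19 Sst UMIs and the richest 145; the median excitatory one had 23 and the richest 181. The limit cuts a continuous range, with 63 inhibitory cells just below it and 57 just above, and 29 and 23 excitatory cells. By construction Sst was at 3491 CPM in the Sst-high inhibitory and 4717 CPM in the Sst-high excitatory cells. It was at 46.2 and 37.7 CPM in the other cells of each kind, of which 16.3% and 16.8% had a UMI (9.54% and 8.48% thinned), above the 4.48% (2.54% thinned) of mature oligodendrocyte-like cells. Neurons with both transporters included 15 Sst-high cells (5.79%) and those with neither 26 (5.65%).

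Sst was uneven over the 20 inhibitory and 20 excitatory sub-clusters, which were made without the somatostatin genes. The highest level was in excitatory sub-cluster 19, led by Npy, Npw, Prlr and Pthlh: all 33 of its cells had Sst UMIs, at 6835 and 6551 CPM, and 32 were Sst-high. Next came inhibitory sub-cluster 18, led by Ptk2b, Arpp21, Ppp1r1b and Pthlh, where all 40 cells had Sst UMIs, at 3034 and 2610 CPM, and 35 were Sst-high. These values kept their order in both libraries, and no other sub-cluster reached 2000 CPM in either. Inhibitory sub-cluster 9 (Fign, Piezo2, Nr2f1, Meis2) stood at 1926 and 1102 CPM, inhibitory sub-cluster 5 (Otp, Six6, Six3) at 1432 and 775 CPM, excitatory sub-cluster 5 (Asb4, Ebf3, Nxph4) at 502 and 1286 CPM, inhibitory sub-cluster 1 (Meis2, Slc30a3, Calb2, Tac1) at 744 and 745 CPM, and excitatory sub-cluster 9 (Trh, Sall3) at 426 and 329 CPM. The order among these 5 changed between the libraries. The median sub-cluster had 39.8 CPM. Inhibitory Sst-high cells fell mainly in sub-clusters 1 (44 of 232 cells), 5 (35 of 168), 18 (35 of 40) and 9 (30 of 84), and excitatory ones in sub-clusters 19 (32 of 33), 5 (28 of 105) and 9 (12 of 71). Thus 80% of the Sst-high cells lay in 4 inhibitory and 3 excitatory sub-clusters; at a finer clustering they took 6 and 4, and at a coarser one 4 and 3.

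**Figure D2:**
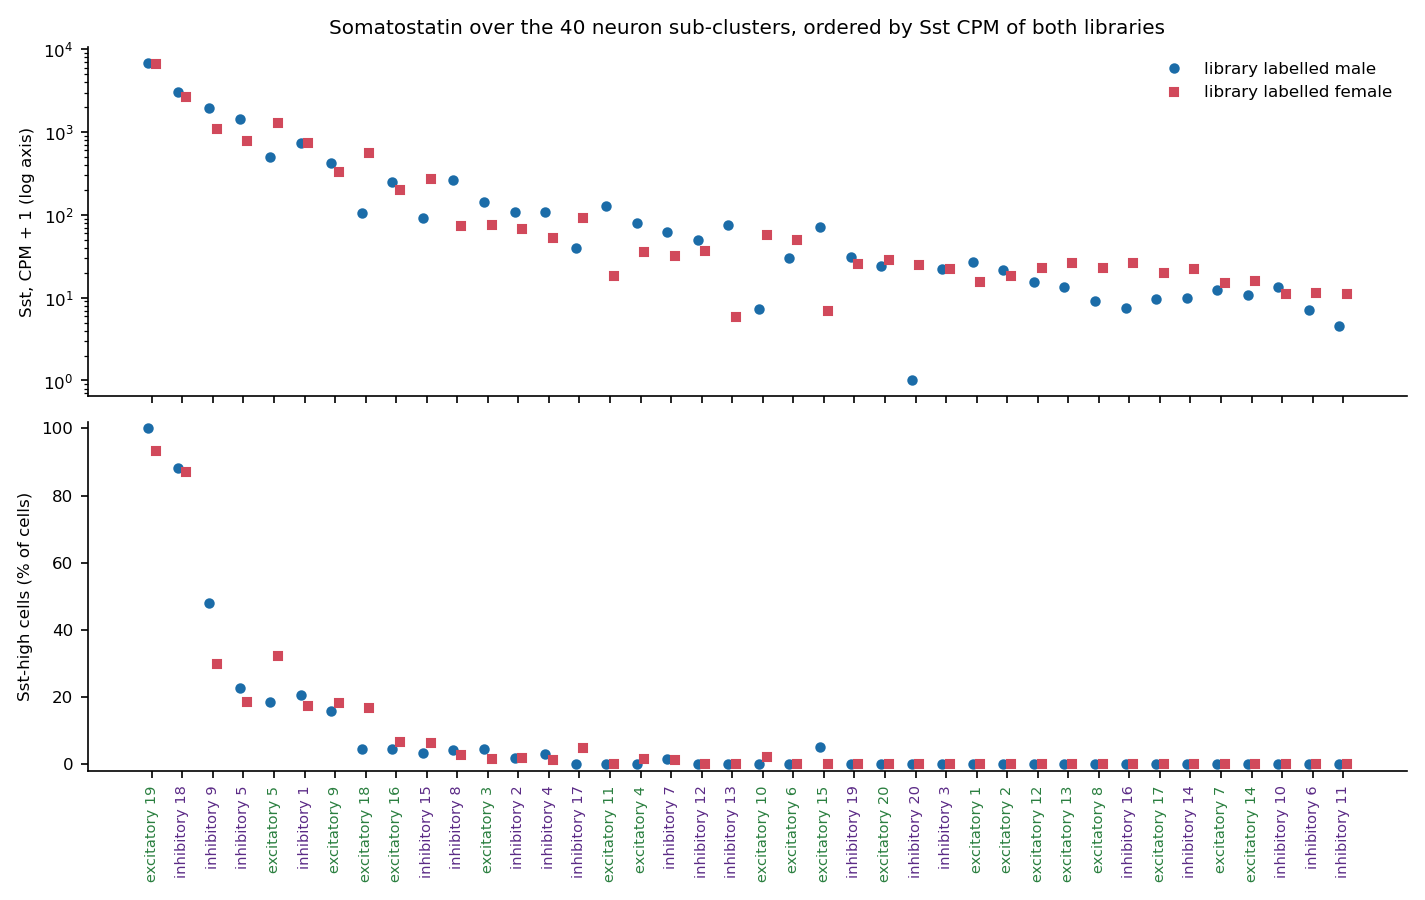
Upper panel, Sst as CPM + 1 on a log axis; lower panel, Sst-high cells as a percent of the cells; both over the 40 neuron sub-clusters, ordered from left by the Sst CPM of both libraries, inhibitory names in purple and excitatory names in green. Circles are the library labelled male and squares the library labelled female; excitatory 19 and inhibitory 18 stand above the rest in both panels and both libraries.

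The receptors were then read in the Sst-high cells, with Sst taken out of the sums. Among inhibitory neurons none was called (6.25% of 12121 genes were, 432 or 3.56% higher and 325 or 2.68% lower; 94 and 25 with DESeq2). Sstr2 had 13 and 15 UMIs in Sst-high cells and 96 and 110 in the others, 19.5 and 24.4 CPM against 13.3 and 12.5 CPM. The difference of 0.79 ± 0.33 missed the threshold (adjusted p = 0.169, edgeR). Sstr1 (5 and 5 UMIs in Sst-high cells, 42 and 56 in the others) differed by 0.39 ± 0.53 (adjusted p = 0.811, edgeR) and Sstr3 (5 and 3, 57 and 78) by -0.40 ± 0.54 (adjusted p = 0.808, edgeR). Sstr5 had 6 and 1 UMIs against 24 and 31, with a difference of 0.68 ± 0.65 (adjusted p = 0.696, edgeR). None of these 4 differences passed the threshold, which does not show that the levels are alike. Cort had 3 UMIs in the 162 Sst-high cells and 4 in the other 1933 inhibitory neurons, a ratio of 9.40 per UMI sequenced (exact 95% interval 1.38 to 55.6), all 3 of them in sub-cluster 18.

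Among excitatory neurons, Sstr2 was higher in the Sst-high cells. It had 11 and 11 UMIs in the 38 and 46 Sst-high cells and 49 and 69 in the 672 and 737 others, 41.2 and 32.2 CPM against 7.46 and 9.53 CPM. Both libraries were higher in the Sst-high cells. The difference was 2.05 ± 0.46 on the log2 scale (adjusted p = 0.00044, edgeR), where 4.58% of 12157 genes were called (1.78% of them higher and 2.8% lower). DESeq2 gave an adjusted p of 0.0953, cells thinned to 3000 UMIs 0.144, a limit of 0.05% for Sst-high 0.0945 and a gate of 2 transporter UMIs 0.0592, all with a difference of 1.56 or more. Without Hcrt-rich and Pmch-rich neurons it was 1.72 ± 0.43 (adjusted p = 0.00431, edgeR). Sstr1 had 1 UMI in Sst-high cells and 56 in the others (adjusted p = 0.771, edgeR), a ratio of 2.47 in favour of the others with an exact interval of 0.425 to 99.2. Sstr3 had 1 UMI against 103 (adjusted p = 0.421, edgeR), a ratio of 4.54 with an interval of 0.797 to 181. Sstr5 had 0 against 24 UMIs and was not tested. The test of the difference between the kinds itself did not call Sstr2 (inhibitory minus excitatory contrast -1.26 ± 0.48, adjusted p = 0.148, edgeR, where 4.07% of 12800 genes were called, 2.71% positive and 1.36% negative). With a limit of 0.3% for Sst-high, the same difference was -2.09 and was called (adjusted p = 0.0454, edgeR), so the call depends on that limit.

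**Figure D3:**
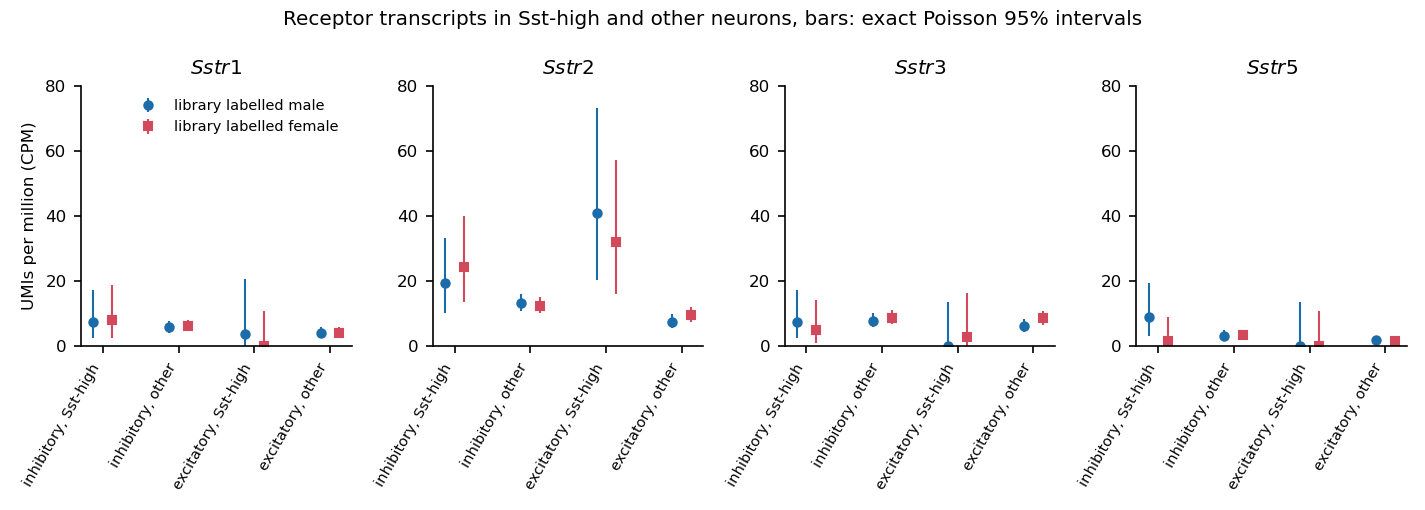
CPM of Sstr1, Sstr2, Sstr3 and Sstr5 (vertical axis, 0 to 80 in every panel) in Sst-high and other neurons of each kind (horizontal axis). Circles are the library labelled male, squares the library labelled female, bars exact Poisson 95% intervals; Sstr2 in Sst-high excitatory neurons lies at 41.0 and 32.1 CPM in the 2 libraries (here with Sst kept in the totals) and the other receptors stay below 10 CPM.

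The 2 sub-clusters with the highest Sst also had the highest Sstr2 levels. Sub-cluster excitatory 19 held 14 of the 22 (10 and 4 in the 2 libraries) in 10 of its 33 cells, at 50.6 CPM over all its cells (exact Poisson 95% interval 27.7 to 84.9). Inhibitory 18 held 11 of the 28, and all its cells had 14 Sstr2 UMIs in 12 of 40 cells, at 44.1 CPM (24.1 to 74.0). These were the highest Sstr2 levels of the 40 sub-clusters, whose median was 10.5 CPM; inhibitory 15, led by Slc18a2 and Th, followed with 31.9 CPM (19.5 to 49.3) and inhibitory 7, led by Nkx2-1 and Lhx1, with 26.4 CPM (18.03 to 37.2), intervals that overlap those of the first 2. Excitatory sub-clusters 5 and 9 held 2 Sstr2 UMIs each in their Sst-high cells, at 12.5 and 22.1 CPM. Within inhibitory sub-cluster 5, the Otp and Six3 neurons, Sst-high cells had 8 UMIs at 29.3 CPM (12.7 to 57.8) and the other 133 cells 19 UMIs at 19.99 CPM (12.03 to 31.2). Each of the other receptors was highest elsewhere. Sstr1 was highest in inhibitory 17 (Tmem163, Bdnf), at 27.5 CPM (13.2 to 50.5), Sstr3 in inhibitory 12 (Tac2, Vipr2), excitatory 11 and inhibitory 4, at 21.4, 20.7 and 19.2 CPM, and Sstr5 in excitatory 16 and inhibitory 16 (Cartpt, Nts), at 12.7 and 11.2 CPM. Sstr3 had no UMI in excitatory 19, excitatory 5 or inhibitory 18. With only 33, 105 and 40 cells, this does not show that Sstr3 is absent there.

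The partner genes of Sst-high cells differed between the kinds. Among inhibitory neurons, the highest were Ptk2b, a calcium-sensitive tyrosine kinase, at 61.6 ± 23.5 CPM in Sst-high and 3.60 ± 0.20 CPM in other cells (mean ± SD over 2 libraries; log2 difference 4.11 ± 0.30, adjusted p = 3.98e-40, edgeR), and Rprml (4.04 ± 0.28), a gene of the reprimo family. They were followed by Pthlh (3.24 ± 0.28), which encodes parathyroid hormone-related peptide, Chrm1 (3.23 ± 0.29), a muscarinic acetylcholine receptor, and Otp, a homeodomain factor of hypothalamic peptide neurons. Otp was at 194 ± 24.8 against 21.5 ± 3.71 CPM, with a difference of 3.19 ± 0.15 (adjusted p = 5.43e-100, edgeR). Lmo7, Icam5, Bcl11b, Arpp21 and Gda completed the 10 highest, from 3.03 down to 2.35. Bcl11b, a zinc-finger factor of striatal and cortical projection neurons, stood at 97.8 ± 9.17 against 14.1 ± 1.91 CPM, and Arpp21, a phosphoprotein regulated by cyclic AMP, at 189 ± 6.91 against 31.6 ± 0.96 CPM. The lowest gene was Nts, the neurotensin precursor, at 25.9 ± 4.86 against 180 ± 16.9 CPM, which fell by 2.78 on the log2 scale (adjusted p = 1.76e-49, edgeR). Nxph1, Penk, Prlr, Rorb, Pgr15l, Npas3, Asb4, Cartpt and Cadps2 followed, from -1.96 to -1.26. DESeq2 did not call Prlr (adjusted p = 0.0680), Npas3 (0.0709) or Rorb of these 20 genes. Rorb differed most between libraries, with own differences of -3.28 and -0.77.

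The lists showed which groups of genes these cells held. Of 20 tested companions of Sst in forebrain interneurons, 5 were higher (Sox6, Npy, Pdyn, Calb1, Calb2) and 6 lower (Satb1, Nr2f2, Nxph1, Crh, Chodl, Lhx6), with 2 higher and 2 lower by DESeq2; the median difference was -0.31, against -0.01 over all genes. Lhx6, the factor that specifies cortical somatostatin interneurons, had 4 and 0 UMIs in Sst-high cells and 150 and 216 in the others (log2 difference -2.82 ± 0.52, adjusted p = 4.53e-06, edgeR; not called by DESeq2). Of 23 inhibitory lineage factors, 6 were higher and 9 lower (3 and 1 by DESeq2). Meis2, a TALE homeodomain factor of ganglionic eminence neurons, rose by 1.51 ± 0.09 (329 ± 71.8 against 118 ± 12.4 CPM) and Six3, an anterior forebrain homeodomain factor, by 1.40 ± 0.13 (138 and 145 against 46.3 and 63.3 CPM), with Pax6, Sox6, Six6 and Isl1 also higher. The 9 lower ones were Lhx6, Lef1, Hmx2, Tcf7l2, Nkx2-1, Nr2f2, Satb1, Dlx6 and Dlx1, and the list's median was -0.50. Nr2f2, an orphan nuclear receptor of caudal interneurons, stood at 58.4 ± 2.01 against 121 ± 6.50 CPM (-1.03 ± 0.16). Of 10 calcium-binding proteins, 5 were higher and none lower (4 and 0 by DESeq2; all 10 with a median of 0.29), led by Necab2 (1.62 ± 0.19, 78.3 against 25.8 CPM) and Calb1, or calbindin (1.08 ± 0.11, 226 against 109 CPM). Of 16 early response genes, 8 were higher and none lower (3 and 0 by DESeq2), with a median of 0.95. They included Arc (2.29 ± 0.36), Junb (1.46 ± 0.16, 111 against 40.6 CPM) and Egr1 (1.06 ± 0.14, 127 against 62.6 CPM). Fos was higher mainly in the library labelled male, at 86.8 and 39.1 CPM in Sst-high and 43.5 and 38.1 CPM in other cells. Of 23 neuropeptides, 5 were higher, among them Npy (36.9 ± 17.6 against 13.1 ± 1.03 CPM) and Tac1 (285 against 142 CPM, log2 difference 1.01 ± 0.10; adjusted p = 0.34 by DESeq2), and 7 lower, with 0 and 3 by DESeq2. Genes of receptor signalling were called in both directions, beside 6.25% of all genes. Of 31 genes of Gi and Go signalling, 2 were higher (Adcy2 and Rgs4) and 1 lower (Rgs10), and of 22 potassium channels 3 were higher and 2 lower, with none called by DESeq2 in either list.

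Among excitatory neurons, the 2 highest genes were peptide precursors. Npw, the neuropeptide W precursor, had a log2 difference of 6.97 ± 0.55 (70.2 ± 33.0 against 0.526 ± 0.548 CPM, adjusted p = 2.72e-34, edgeR), and Npy, the neuropeptide Y precursor, one of 5.08 ± 0.26. Npy had 65 and 60 UMIs in Sst-high cells, 243 and 176 CPM, and 23 and 60 UMIs in the others, 3.502 and 8.28 CPM, so both libraries were high in the first group only. 4833423E24Rik (4.88 ± 0.45) followed, then Cck, the cholecystokinin precursor (2.87 ± 0.16, 319 ± 70.4 against 43.4 ± 3.92 CPM). The ventral forebrain homeodomain factor Nkx2-4, the calcitonin receptor Calcr (283 ± 30.1 against 45.6 ± 9.14 CPM), Necab1, Asb4, Nkd2 and Sema3e were between 2.73 and 2.29. At the other end, the lowest genes were C1ql3, Oxt, Chodl, Hcrt and Pmch. Hcrt was at 168 ± 31.4 CPM in Sst-high and 4976 ± 1034 CPM in other excitatory cells, and Pmch at 284 ± 46.4 and 8342 ± 2699 CPM. The Sst-high values of both are close to those of inhibitory neurons, which had 152 and 175 CPM of Hcrt and 228 and 232 CPM of Pmch in Sst-high and other cells. Neurons that drew at least 0.3% of their UMIs from Hcrt or Pmch, here called Hcrt-rich and Pmch-rich, were all among the other cells. Leaving them out took the other cells from 672 and 737 to 561 and 640, the calls from 217 higher and 340 lower to 208 and 188, and by construction the low values of Hcrt and Pmch.

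Cartpt was at 43.1 ± 23.7 against 691 ± 53.6 CPM (log2 difference -4.09 ± 0.19) and Pdyn, the dynorphin precursor, at 14.4 ± 4.49 against 204 ± 19.6 CPM (-3.83 ± 0.30). Without the Hcrt-rich and Pmch-rich neurons these differences were -1.03 (adjusted p = 0.00885, edgeR) and -1.71 (adjusted p = 0.0024, edgeR), so both were still lower but by less. C1ql3 had 2 UMIs in Sst-high and 2846 in other cells, a ratio of 62.7 (exact 95% interval 17.3 to 518), and Chodl 1 against 706, a ratio of 31.1 (5.56 to 1230; adjusted p = 0.0523 by DESeq2). Without those neurons C1ql3 was still called (adjusted p = 0.000345, edgeR) and Chodl was not (adjusted p = 0.304, edgeR). For 4 of the genes the other excitatory cells of 1 library decided the level: Oxt, the oxytocin precursor (12.6 CPM labelled male, 687 CPM labelled female), Avp, the vasopressin precursor (698 and 93.2 CPM), Hba-a1 (6.09 and 158 CPM) and Hba-a2 (4.72 and 131 CPM). Oxt, Hba-a1 and Hba-a2 were not called without the library term, and against excitatory neurons with no Sst UMI the difference of Oxt was -0.97 (adjusted p = 0.639, edgeR). Of the 5 listed red blood cell markers, edgeR called 3 of the 4 tested lower in Sst-high cells of both kinds. DESeq2 called 0 lower in inhibitory and 2 lower in excitatory neurons. The summed level of the markers was 22.5 to 43.9 CPM in Sst-high and 24.7 to 549 CPM in other excitatory neurons, and 37.4 to 63.5 against 23.1 to 216 CPM in inhibitory ones, with Alas2 at 0 in the Sst-high cells. In 1 library, the sum in other inhibitory neurons (23.1 CPM) thus lay below that in the Sst-high ones. The part of these markers in the results was not tested.

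The lists gave a different picture from the inhibitory one. Of 25 neuropeptides, Npw, Npy and Cck were higher and 13 lower (3 and 7 by DESeq2), with a median of -1.26 against -0.03 over all genes. Without the Hcrt-rich and Pmch-rich neurons, 4 of 24 were higher and 12 lower, with a median of -0.69. Of 15 genes of prohormone processing and granins, Cadps2 was higher and 6 lower (1 and 3 by DESeq2). Scg2, a granin of dense-core vesicles, stood at 513 and 413 CPM in Sst-high and 1790 and 1946 CPM in other cells (log2 difference -2.06 ± 0.10, adjusted p = 3.07e-86, edgeR), Vgf at 118 against 380 CPM (-1.71 ± 0.16), and the convertase Pcsk1 had 3 and 2 UMIs against 363 and 424 (-2.82 ± 0.47). These levels of the other cells were carried by the Hcrt-rich and Pmch-rich neurons: without them Scg2 was at 546 and 514 CPM in the other cells (difference -0.16, adjusted p = 0.577, edgeR), Pcsk1 was not called (-0.78, adjusted p = 0.710), Vgf was lower by less (-0.60, adjusted p = 0.0276), and of the 15 genes Cadps2 alone was higher and Vgf alone lower. Of 20 excitatory lineage factors, Ebf1, Ebf2, Ebf3 and Sim1 were higher and 5 lower (2 and 1 by DESeq2). The 4 higher ones were also called without the Hcrt-rich and Pmch-rich neurons, with 3 lower. Ebf3, a helix-loop-helix factor, rose by 2.28 ± 0.16 (282 ± 25.3 against 56.6 ± 6.68 CPM); the list's median was -1.04 as fitted and -0.36 with the 6 genes that lacked UMIs in one group set to their bound against 3 UMIs. Of 15 inhibitory lineage factors, Satb1 (133 ± 34.5 against 29.9 ± 5.92 CPM) and Nkx2-1 (208 ± 24.2 against 51.8 ± 6.86 CPM) were higher, and 2 lower, Zic1 and Tcf7l2; without those neurons Zic1 was not called (adjusted p = 0.0943, edgeR). Of 18 forebrain companions, Npy, Satb1 and Elfn1 were higher and Calb1, Nos1, Pdyn and Chodl lower, of which Nos1 and Pdyn alone were called without those neurons. Of 16 early response genes none was higher and Junb, Fos and Fosl2 were lower (1 by DESeq2, Fos at 3.74 and 11.7 against 66.7 and 106 CPM); Fos and Junb were also called without those neurons. Of the Gi and Go signalling genes, the potassium channel subunit Kcnj5 (1.67 ± 0.53) and Arrb2 (0.80 ± 0.23), which encodes an arrestin that binds activated receptors, were higher and Kcnj9 and Rgs4 lower, 4 of 31 in all and none by DESeq2; without those neurons Arrb2 (adjusted p = 0.0867) and Kcnj9 (adjusted p = 0.103) were not called. Beside these lists, the excitatory comparison called 217 (1.78%) of all 12157 genes tested higher and 340 (2.8%) lower, and DESeq2 59 and 53.

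The 2 contrasts were compared in 1 fit over 8 sums, which called 521 of 12800 genes (347 or 2.71% positive and 174 or 1.36% negative, as the inhibitory minus the excitatory log2 contrast, so that a positive value can also come from a gene that is lower among excitatory Sst-high cells). Of the listed genes, Calb1 rose in inhibitory (1.08) and fell in excitatory Sst-high cells (-0.83), a difference of 1.91 ± 0.17 (adjusted p = 1.40e-14, edgeR). The excitatory fall was not called without the Hcrt-rich and Pmch-rich neurons. It was also not uniform: Calb1 was at 12.5 CPM in the Sst-high cells of excitatory 5, 188 CPM in excitatory 9 and 269 CPM in excitatory 19. Otp was higher among inhibitory Sst-high cells (3.19) and not among excitatory ones (0.08 ± 0.20; 74.9 and 126 CPM against 89.2 and 99.7 CPM), a difference of 3.11 ± 0.22 (adjusted p = 3.84e-19, edgeR). Npy was higher in both kinds and more so among excitatory neurons (difference -3.53 ± 0.35, adjusted p = 1.86e-12, edgeR). Asb4 and Prlr moved in opposite directions, lower in inhibitory and higher in excitatory Sst-high cells (-3.80 ± 0.24 and -3.64 ± 0.28). Among whole lists, 6 of 16 early response genes, 6 of 10 calcium-binding proteins, 6 of 15 prohormone processing genes and 8 of 26 neuropeptides had a positive difference, and 0, 1, 1 and 4 a negative one. Without the Hcrt-rich and Pmch-rich neurons, 5 of 16, 4 of 10, 1 of 15 and 5 of 26 were positive and 0, 1, 1 and 4 negative, so that of the prohormone list Vgf alone stayed positive.

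**Figure D4:**
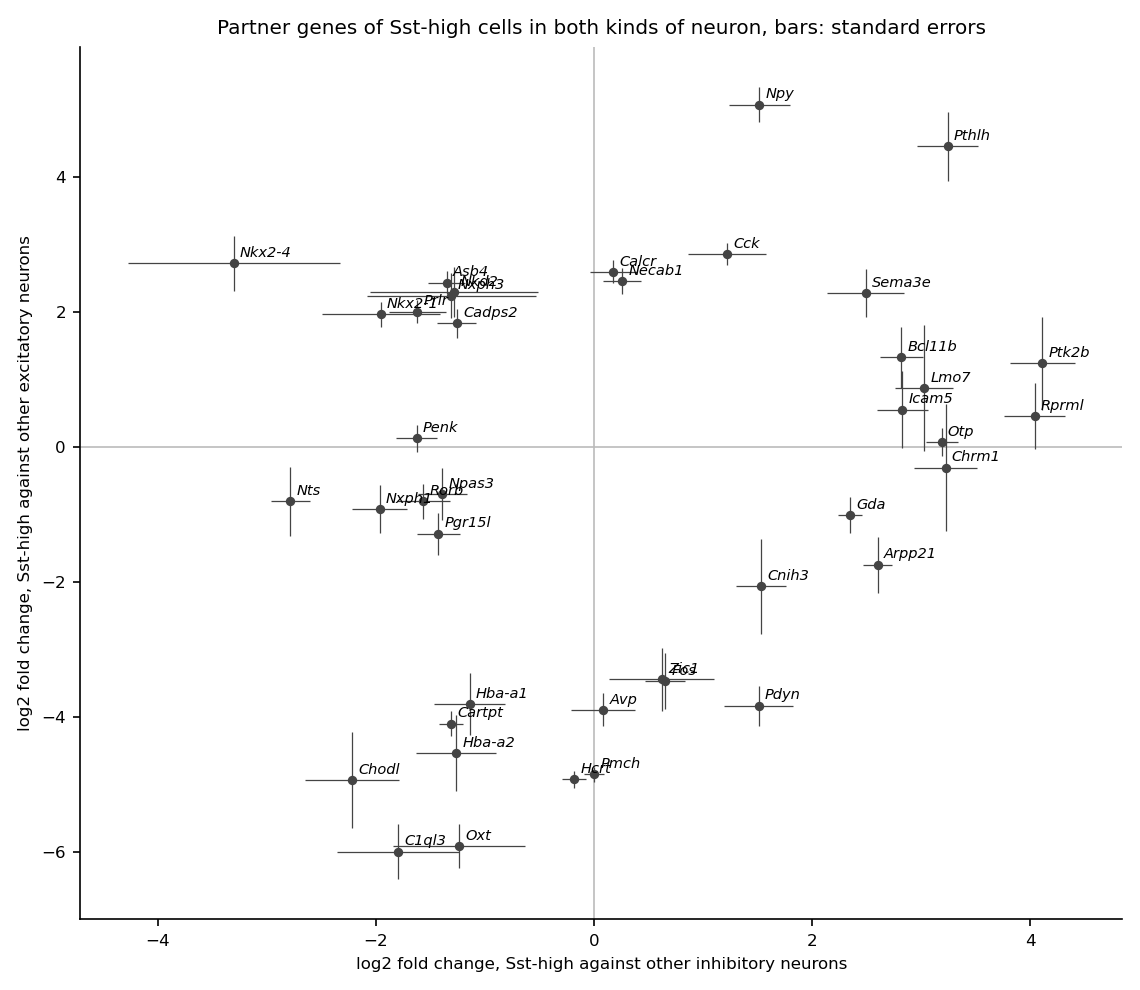
Log2 fold change between Sst-high and other cells among inhibitory neurons (horizontal axis) and among excitatory neurons (vertical axis) for 41 of the 45 partner genes chosen by rule, with standard errors as bars; genes with a standard error of 1 or more in either fit are not drawn. Pthlh, Npy, Cck and Sema3e lie to the upper right, Otp, Ptk2b and Rprml far to the right, Asb4, Prlr and Nkx2-1 to the upper left, and Hcrt and Pmch straight below the centre.

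Neither kind of Sst-high cell was uniform, and most partner genes belonged to 1 or 2 sub-clusters. In the Sst-high cells of the 4 inhibitory sub-clusters, Otp was at 461 CPM in 18 and 455 CPM in 5, at 3.1 CPM in 1 and without a UMI in 9, whereas Meis2 was at 768 CPM in 1 and 510 CPM in 9 and without a UMI in 5 and 18. Tac1, the substance P precursor, was at 1040 CPM in 1, and Calb2, or calretinin, at 535 CPM there. Calb1, Arpp21, Gda and Cartpt were at 668, 654, 895 and 505 CPM in 18, and Prox1 at 125 CPM in 9 and 88 CPM in 5. In the excitatory sub-clusters, Npy (463 CPM), Npw (153 CPM, in 9 cells), Prlr (515 CPM) and Penk (243 CPM) marked 19. Calcr was at 429 CPM in 19 and at 317 CPM in 5. Cck reached 604 CPM in 5 and 340 CPM in 19, and Trh (730 CPM) and Calb2 (1250 CPM) marked 9. Asb4 was at 473 CPM in excitatory 5 and 340 CPM in excitatory 19, and at 176 CPM in inhibitory 5. Lhx6 had no UMI in the Sst-high cells of any of these 7 sub-clusters. Since other genes shaped the sub-clusters, these levels are a description.

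**Figure D5:**
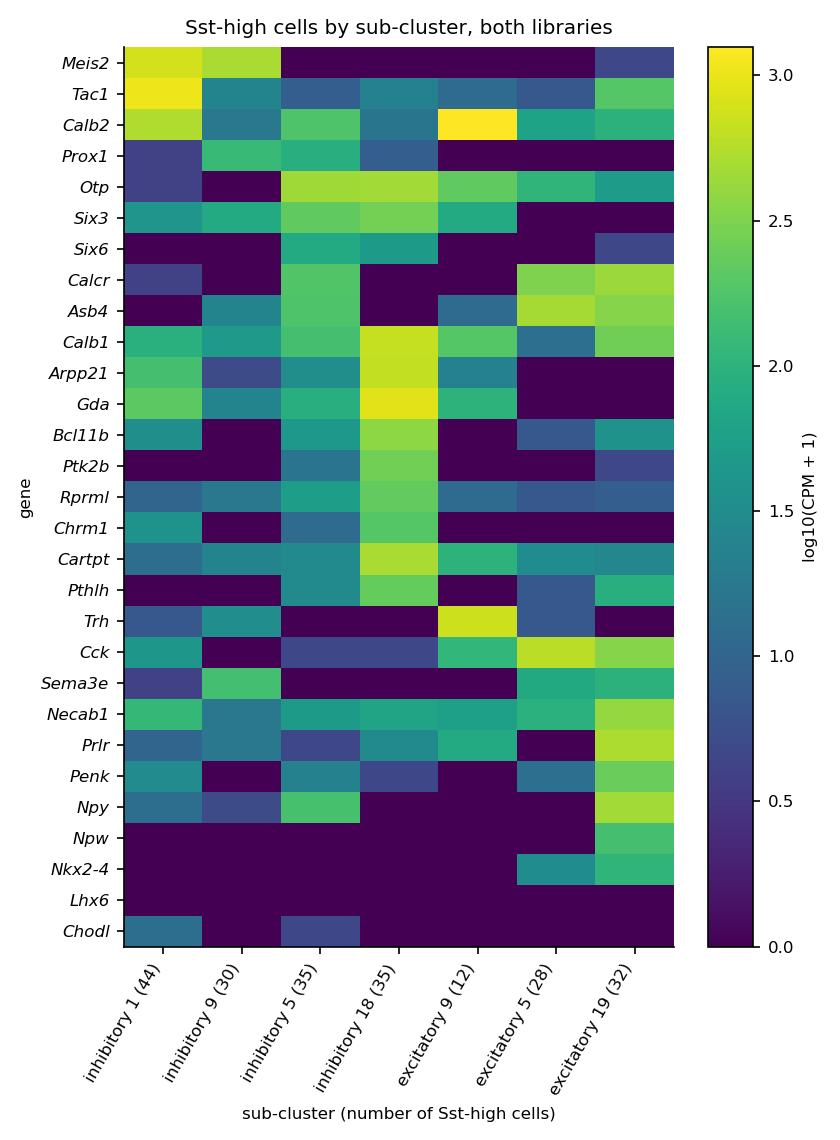
log10(CPM + 1) of 29 partner and listed genes (rows) in the Sst-high cells of the 7 sub-clusters that hold most of them (columns, with the number of Sst-high cells), both libraries summed; yellow is high and dark purple 0. Meis2 and Otp mark separate inhibitory columns, Calb1, Arpp21 and Gda are brightest in inhibitory 18, and Npy and Npw in excitatory 19.

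Over the 40 sub-clusters, which share libraries and differ in depth, the genes whose log2(CPM + 1) most resembled that of Sst were Pthlh (Pearson r = 0.67), Atp2b4 (0.61), Arhgef2 (0.61), Gria3 (0.59) and Fbxw7 (0.58). The gene most like Sstr2 was Efna3 (0.70), most like Sstr1 Neto2 (0.61), most like Sstr3 Ank (0.73) and most like Sstr5 Acvr1c (0.70). The receptor values rest on 165 to 374 UMIs in all for Sstr1, Sstr2 and Sstr3 and on 86 for Sstr5, and no p is attached to any of these correlations. Markers of other cells were compared between Sst-high and other neurons. Of the astrocyte list, Aldoc alone was lower in both kinds, with summed levels of 336 to 382 against 482 to 506 CPM in inhibitory and 165 to 237 against 286 to 302 CPM in excitatory neurons. Of the mature oligodendrocyte list, Mag was lower in inhibitory Sst-high cells and Mbp higher in excitatory ones (0.32 ± 0.09), with summed levels of 1370 to 1840 against 1307 to 1659 CPM and of 1385 to 2004 against 1319 to 1479 CPM. Of the oligodendrocyte precursor list, C1ql1 was higher in inhibitory Sst-high cells and Ptprz1 lower in excitatory ones, with summed levels of 100 to 106 against 70.7 to 78.7 CPM and of 44.9 to 58.6 against 84.8 to 90.6 CPM; of the newly formed oligodendrocyte list, Nkx2-2 was at 0 and lower in excitatory Sst-high cells. Of the tanycyte list, Crym and Nnat, which neurons also express, were higher in inhibitory Sst-high cells, with Rax at 0. No microglial, endothelial, mural, fibroblast or ependymal marker was called in either kind, and all 5 perivascular macrophage markers were at 0 in Sst-high cells. The part of the markers that differed in the partner lists was not tested.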

How the data were processed

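UMI counts per gene and cell barcode in 2 libraries were deposited by the authors as raw counts; per the submitters' processing notes they used Cell Ranger 2.2.0 with mm10 (GRCm38), and neither annotation release nor cell calling nor use of strand is given in the sources used here. Of 28692 gene identifiers, 28416 (99.0%) were in GENCODE M21, which gave positions. The somatostatin genes, the gene lists and the tests were chosen with earlier results of these data known, so no list is independent evidence.

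Barcodes with under 500 genes or over 20% mitochondrial UMIs were removed (163 and 163), then 90 and 110 with the highest Scrublet doublet scores, at 0.8% per 1000 barcodes. Cells were clustered with scanpy 1.11.5 (2000 variable genes, 30 principal components, 15 neighbours, Leiden resolution 1, Python 3.11.15), leaving out somatostatin-family, mitochondrial and sex-linked marker genes. A cluster took a class name only where at least 3 of its markers were in 25% of its cells; this restriction was set after the clusters were seen, because a Trh neuron cluster carried a hemoglobin gene. Class names are rebuilt here and mean "like" that class.

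Counts were summed per library and group, and tested with edgeR 4.0.16 (R 4.3.3; filterByExpr, TMM, quasi-likelihood test with the library as a block, Benjamini-Hochberg adjusted p under 0.05). Such a fit has 4 sums and 1 residual degree of freedom, and the fit of both kinds 8 sums and 3, so the spread is shared over genes. The library is the pair: each contrast is within the same pooled animals. Sst was removed from the sums of the Sst-high comparisons. Standard errors were computed back from the F statistic. P-values rest on the spread between 2 pools only, pooled over genes. In the inhibitory and excitatory Sst-high comparisons the prior degrees of freedom were infinite. The common biological coefficient of variation was 3.16% and 4.95%. A gene's own spread between the pools did not enter there, so neither a small p-value nor a small SE measures that gene's reproducibility. A library's own log2 ratio added 0.5 counts, scaled by depth, to each group.

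Named genes were the 10 highest and 10 lowest log2 differences among genes past the threshold, at 50 CPM or more in one group and changed the same way in both libraries, leaving out Sst, both transporters and mitochondrial and sex-linked genes. Members were always named, list members by their largest changes, and further list members, marker genes and sub-cluster levels were picked after their values were seen. Genes most like a member had the highest r among genes at 50 CPM or more in a sub-cluster. Alternatives were DESeq2 1.42.0, no block, library totals, no filter, doublets kept, a mitochondrial limit of 10%, a gate of 2 UMIs, limits of 0.05% and 0.3%, cells thinned to 3000 UMIs, a reference without Sst UMIs, no Hcrt-rich or Pmch-rich neurons, and 1 library left out. The models were also run on simulated counts, with the same small spread for every gene and no library effect. That run cannot test the spread assumed for the real counts.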

Additional observations from a re-analysis of the deposited data

Results flagged for a closer look

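In the fit of both kinds, 20 named genes differed in their Sst-high contrast between inhibitory and excitatory neurons (edgeR interaction term over 8 sums, 2 libraries). The inhibitory log2 contrast minus the excitatory one was positive for Pdyn (5.35), Pmch (4.83), Hcrt (4.74), Meis2 (4.44), Arpp21 (4.34), C1ql3 (4.22), Fos (4.13), Zic1 (4.03), Avp (3.73) and Cnih3 (3.59). It was negative for Npw (-13.68), Nkx2-4 (-6.02), Nkx2-1 (-3.94), Asb4 (-3.80), Prlr (-3.64), Nkd2 (-3.58), Nxph3 (-3.54), Nxph4 (-3.54), Npy (-3.53) and Cadps2 (-3.09). Npw had no UMI in Sst-high inhibitory cells, so its value depends on the prior count and is no bound. Other values rest on few UMIs. In inhibitory Sst-high cells, Nkx2-4 and Nxph4 had 1 UMI each and Nkd2 and Nxph3 had 3 each. In excitatory Sst-high cells, Meis2 had 1 UMI, C1ql3 had 2 and Cnih3 had 3. The ratios in favour of the other cells had exact intervals of 1.80 to 406 for Nkx2-4, 0.798 to 186 for Nxph4 and 1.34 to 301 for Meis2. The sizes of these differences are therefore uncertain. DESeq2 did not call Meis2 (adjusted p = 0.0699), Avp (0.0575) or Nxph4 (0.251). A positive value can come from a gene that is low in excitatory Sst-high cells: Hcrt was at 152 and 175 CPM and Pmch at 228 and 232 CPM in Sst-high and other inhibitory neurons, with excitatory contrasts of -4.92 and -4.84. The values for Pmch and Hcrt changed sign, by construction, without the Hcrt-rich and Pmch-rich neurons, and C1ql3, Zic1 and Nxph4 were not called then. These genes were named by their difference, so the values are a description of the most different ones.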

How the results depend on the processing

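In each setting the library stayed the replicate block except where it is said to be left out, and the cause of each change was not tested. The 2845 genes called between inhibitory and excitatory neurons became 1055 with thinned cells, 1409 without Hcrt-rich and Pmch-rich neurons, 913 with no replicate block and 553 with DESeq2. The 757 calls of the inhibitory Sst-high comparison became 45 thinned, 427 with a gate of 2 UMIs, 168 at a limit of 0.3%, 239 with no replicate block and 119 with DESeq2. The 557 excitatory calls became 147 thinned, 153 at a limit of 0.05%, 306 with no replicate block and 112 with DESeq2, and the 521 between the kinds 138 thinned, 214 with no replicate block and 277 with DESeq2. No count could be given with 1 library left.

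Between the kinds of neuron, the log2 difference of Sst was 0.33 with no replicate block and 0.31 with DESeq2, neither called, and -0.050 without Hcrt-rich and Pmch-rich neurons. That of Sstr1 was called with doublets kept (0.67) and without a filter (0.62), and was 0.58 to 0.70 within single libraries. That of Sstr2 was called with doublets kept (0.45), with library totals (0.47) and without a filter (0.45). That of Sstr3 turned to -0.36 thinned and -0.076 without Hcrt-rich and Pmch-rich neurons. Sstr5 was 1.06 and not called with DESeq2 or with no replicate block. Between neurons and other cells, Sstr1 was 1.73 and not called with DESeq2. Single libraries gave 3.45 to 3.84 for Sst, 1.28 to 2.90 for Sstr1, 3.16 to 5.41 for Sstr2 and 2.46 to 2.65 for Sstr3.

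Among inhibitory Sst-high cells, Sstr5 turned to -0.85 at a limit of 0.3%, and Sstr1 was 0.355 and 0.361 within single libraries. Among excitatory ones, Sstr2 was 2.04 thinned, 1.69 with a gate of 2 UMIs, 1.56 at a limit of 0.05% and 2.09 with DESeq2, none called, and Sstr1 turned to 0.16 at a limit of 0.05%; single libraries gave -4.95 to -0.078 for Sstr1 and -5.52 to -1.50 for Sstr3. Without Hcrt-rich and Pmch-rich neurons, Hcrt turned to 0.13 and Pmch to 0.55, which that choice of cells fixes. Between the kinds, Sstr1 turned to -0.025 at a limit of 0.05%, Sstr2 was called at 0.3% (-2.09), single libraries gave 0.44 to 5.44 for Sstr1 and up to 5.59 for Sstr3, and without those neurons Pmch turned to -0.33 and Hcrt to -0.24. Of 64 values (60 named genes and Sstr5 in 4 comparisons), 8 lost a call with DESeq2 and 7 with no replicate block, 16 of those tested when thinned, 8 at a limit of 0.3% (among them Pthlh, Prlr, Npas3 and Cartpt in inhibitory neurons), 2 at 0.05%, 2 with a gate of 2 UMIs, 1 against cells without Sst UMIs, and 4 without Hcrt-rich and Pmch-rich neurons beside the 4 that turned, and all 64 held their direction and side of the threshold with doublets kept, library totals or no filter. Sstr4 had 1 UMI in all, and with 1 UMI or none per group a fitted value depends on the added count.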
